A study of Zea mays with 47 samples.

Results

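The 100 genes described here were low or steady in maize leaves from 25°C to 32°C and stood higher at 38°C. They were chosen from the measured values of 17905 genes. CPM, the counts of a gene relative to the total of its library, were scaled by the TMM method, and each gene's level at a heat level was the mean of log2(CPM + 1) over the libraries of that heat level. Of 14062 genes with a mean of at least 1 CPM, those whose level at 32°C lay within 0.4 of that at 25°C were kept. That mean ran over all heat levels, so a gene could pass it through its libraries at 38°C alone. The rule also set aside 9 named chaperone genes, of which 2 would otherwise have been taken. Both limits were met by 10120 genes. The 100 with the largest difference between 38°C and 32°C, called the late step below, are the late-rising genes. Both steps averaged over the lines therefore chose the genes and are given as a description, with no test.

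RNA came from leaves of seedlings of 8 European maize inbred lines. They stood for both European gene pools, with L012, L043, L017 and L023 as Flint and S058, P040, S067 and S070 as Dent. From an earlier seedling screen, S058, S067, L043 and L012 had been taken as heat tolerant and L023, L017, S070 and P040 as heat susceptible. Plants were raised at 25°C by day and 20°C by night and stayed there, or were moved some days after sowing to 32°C by day and 27°C by night or to 38°C and 33°C, for the rest of a growth period of weeks. Each library pooled pieces of the latest fully developed leaf of several plants, without treatment other than heat. Each line had 2 libraries per heat level, apart from L017 at 32°C with 1, which gave 16, 15 and 16 libraries. The heat levels were run as separate growth chamber experiments, so heat and experiment cannot be told apart. In leaf RNA, more cells of a type and more RNA per cell cannot be told apart either.

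Plants in heat meet unfolding proteins, oxidants and loss of water. Heat shock proteins are chaperones that hold or refold damaged proteins, and they are switched on by heat stress transcription factors. Glutathione S-transferases, glucosyltransferases and cytochromes P450 modify reactive or foreign compounds. When sugars run short, leaves can also turn to amino acids and lipids as fuel, with glutamate dehydrogenase, asparagine synthetase and the glyoxylate cycle as known enzymes of that turnover.

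Library totals ranged from 7747441 to 20642205 counts at 25°C, from 8059394 to 17529195 at 32°C and from 3687700 to 13912372 at 38°C. The 11 genes above 1% of all counts took a median of 83.2% of a library at 25°C, 72.7% at 32°C and 57.9% at 38°C, and their part in the late step was not tested beyond the scaling alternatives given in the closing section. Of the leaf markers, pep1, ppdk1 and me3, genes of the C4 cycle, stood at levels of at least 8.64 log2(CPM + 1) at all 3 heat levels. mdh6, of the same cycle, had 6.61, 6.48 and 6.48. The bundle sheath markers ssu1 and rca1 had 5.46, 6.06 and 5.25, and 8.50, 7.89 and 7.23. Between 32°C and 38°C they fell by 0.89 and 0.67 (adjusted p = 0.0286 and 0.00536, edgeR quasi-likelihood test). Of 8 seed markers 2 were found, sh2 at no more than 0.71 and fl1 (GRMZM2G094532) at 3.76, 3.26 and 2.19. The seed marker fl1 was thus present, and it fell by 1.33 between 32°C and 38°C (adjusted p = 9.48e-08, edgeR quasi-likelihood test). The root hair gene rth3, the 1 of 4 root markers found, had 0.27, 0.63 and 1.25. The part of these markers in the results was not tested. Libraries at 25°C and 32°C were correlated with the profile of each line at 38°C, after centring within each heat level. Of these 31 libraries, 27 were closest to their own line over 5139 genes. The exceptions were P040 at 25°C (replicate 1), both libraries of P040 at 32°C and S070 at 32°C (replicate 1). At 32°C, replicate 1 of P040 was closest to S070 (r = 0.458, own line -0.116). Replicate 1 of S070 was closest to P040 (r = 0.622, own line -0.0348). P040 at 25°C (replicate 1) and at 32°C (replicate 2) were closest to L017 (r = 0.297 and 0.245). Whether labels were exchanged was not tested, and values by line keep the given labels. Chosen without these 4, 71 of the 100 genes were taken again, and counts of genes that differ between lines are given below also without them.

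Summed over the 100 genes, CPM ran from 397 to 607 (median 453) at 25°C, from 357 to 894 (median 475) at 32°C and from 711 to 1701 (median 1146) at 38°C. The highest library at 32°C, P040 replicate 2 with 894 CPM, overlapped with the lowest at 38°C. Late steps lay between 0.88 and 2.35 (median 1.07), against a median of 0.03 over all genes. The mean at 38°C ran from 2.05 to 372 CPM (median 6.19, against 2.51 over all genes), 39 genes were under 5 CPM and 9 above 20 CPM. At 32°C the median was 1.90 CPM, against 2.45 over all genes. All genes include those under the minimum mean of 1 CPM, which the 100 genes passed with their libraries at 38°C counted. The deposited table held genes that reached a low minimum in at least a pair of libraries. Of the 100, 84 reached 2 CPM, as scaled here, in 2 libraries outside 38°C. The paper names no such scaling for its minimum, so whether the other genes entered the table through the libraries at 38°C was not tested. The first step was negative in 59 genes and positive in 41, and ran from -0.40 to 0.37.

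**Figure D1:**
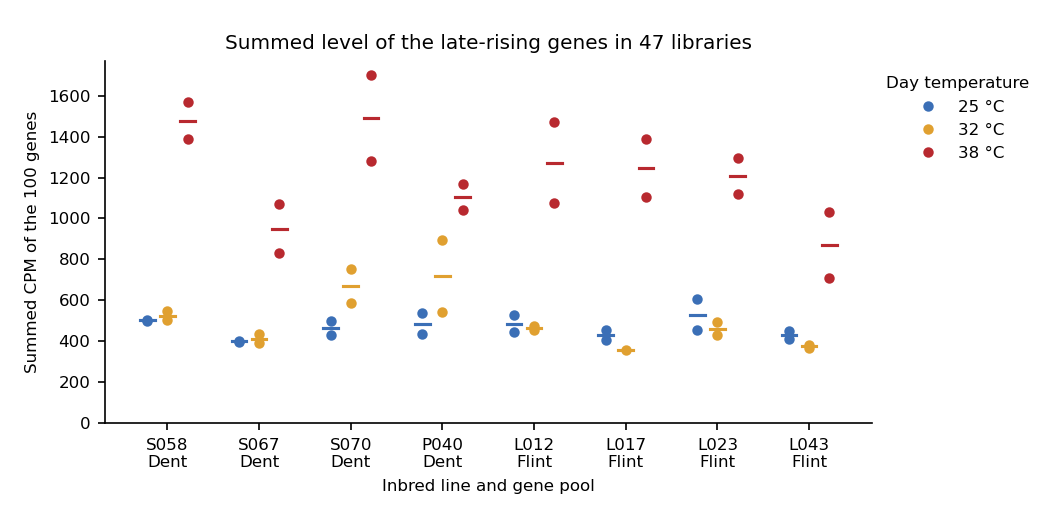
Summed CPM of the 100 genes (vertical axis) in each of 47 libraries, by line and gene pool, with the heat level in colour and the mean of each line and heat level as a short bar. Libraries at 38°C lie between 711 and 1701, those at 25°C between 397 and 607, and 1 library of P040 at 32°C reaches 894.

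At the last ranks, GRMZM2G018820, GRMZM2G336533 and GRMZM2G038183 were inside with late steps of 0.884, 0.882 and 0.879, and GRMZM2G007256, GRMZM2G061487 (dbf1) and GRMZM2G173967 were outside with 0.874, 0.873 and 0.871. At the limit of 0.4, GRMZM5G803565, GRMZM2G132875 and GRMZM2G090736 were inside with first steps of -0.395, -0.388 and -0.387. GRMZM2G345330, GRMZM2G129860 and GRMZM2G085661 were outside with -0.402, -0.403 and 0.420. The limit acts on log2(CPM + 1), which dampens changes below 1 CPM. edgeR's quasi-likelihood test over all genes, on the log2 scale of the counts, called 10 of the 100 genes between 25°C and 32°C (4 higher at 32°C, 6 lower), where 38.6% of all genes were called. Between 32°C and 38°C it called 99 as higher, where 16.8% of all genes were called higher. The rule had used both contrasts, so nothing is read from these counts. GRMZM2G014395 was the member not called.

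Heat-related names, 7 in number, stood among the 100 genes. hsp22 (GRMZM2G007729), a small heat shock protein, had 0 to 0.783 CPM at 25°C (median 0.229), 0 to 2.44 at 32°C (median 0.334) and 0.869 to 18.3 at 38°C (median 5.83). Between 25°C and 32°C hsp22 was already called higher, by 1.23 on the log2 scale (adjusted p = 0.0449, edgeR quasi-likelihood test). On the damped scale of the rule its level went from 0.35 to 0.62. Its late step was 2.10, and 15 of 16 libraries at 38°C lay above all others. The lone overlap came from 1 library of L043.

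GRMZM2G080724, placed with heat stress genes in the study's annotation, had 0 to 0.522 CPM at 25°C (median 0.0484), 0 to 0.591 at 32°C (median 0.160) and 1.23 to 13.3 at 38°C (median 3.87). All libraries at 38°C were above all others. Its level was read from few counts below 38°C, with 8 libraries at 0 at 25°C and 3 at 32°C. GRMZM2G070475, in the same annotation class, had 0.437 to 2.50 CPM at 25°C (median 1.24), 0.183 to 3.65 at 32°C (median 1.48) and 3.72 to 13.4 at 38°C (median 5.61), again without overlap.

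Such a complete separation was found in 2 of the 100 genes and in 0.0168% of all genes, and since the rule had used these values it carries no test. Against the 32°C libraries alone, 4 genes separated, with 0.0503% of all genes. These were the former pair, GRMZM2G125529 and GRMZM5G867185 (SCL25B).

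Class I heat shock protein 3 (GRMZM2G335242) had medians of 0.545, 0.956 and 4.02 CPM at 25°C, 32°C and 38°C, with 2.06 CPM as the lowest and 10.3 as the highest library at 38°C. hsp70-5 (GRMZM5G802801), of the Hsp70 family of ATP-driven chaperones, had medians of 5.15, 5.26 and 16.2 CPM, and 4.81 to 22.2 CPM at 38°C. In each of the pair, most libraries at 38°C exceeded all others (15 and 14 of 16).

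GRMZM2G422240, also classed as a heat stress gene, was uneven. S067 had 48.2 and 20.4 CPM at 38°C and L012 had 7.08 and 3.95, while no other library at 38°C exceeded 1.84 and both libraries of L017 were at 0. S067 was already the highest line at 32°C, with 2.90 and 1.5 CPM. GRMZM2G154685, annotated as a peptidylprolyl isomerase, an enzyme class that helps proteins fold, was at 0 in all 16 libraries at 25°C. At 38°C it had 33.4 and 7.58 CPM in L017, and 0 in L012 and L023. For these genes the late step was held by a few lines, and a mean over the lines does not describe most of them.

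**Figure D2:**
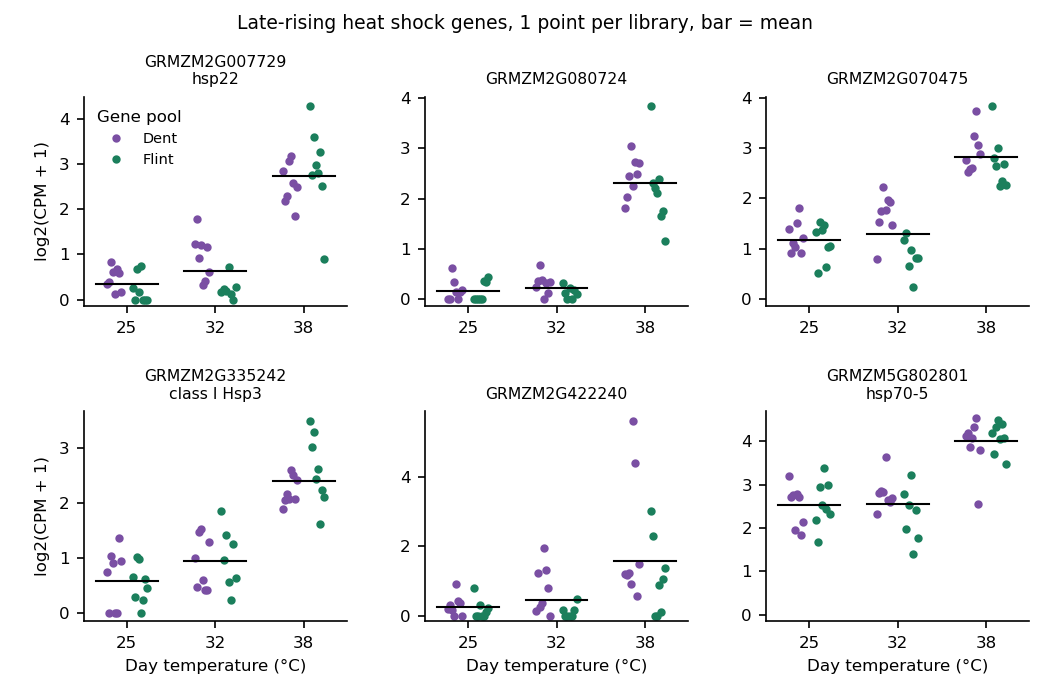
log2(CPM + 1) of 6 late-rising heat shock genes (vertical axes) against day temperature in °C, 1 point per library, Dent lines in purple and Flint lines in green, with the mean of each heat level as a bar. In GRMZM2G080724 and GRMZM2G070475 every point at 38°C lies above every point at 25°C and 32°C, and in GRMZM2G422240 the 2 highest points are the libraries of S067.

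Some genes belonged to families known for detoxification. GRMZM2G078465, classed as a UDP-glucosyltransferase, an enzyme that attaches sugar to small molecules, had the largest late step, 2.35. It had medians of 0.0934, 0.141 and 8.86 CPM at 25°C, 32°C and 38°C and ran from 0.320 to 39.4 CPM at 38°C. The line means at 38°C were 28.3 CPM in S058 but 1.05 in L043 and 0.430 in L012, so this large mean step was small in some lines.

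In2-1 (GRMZM2G042639), a glutathione S-transferase-like protein first known from its induction by herbicide safeners, came second with 2.27. It had 0.0969 to 6.99 CPM at 25°C (median 0.718), 0.0914 to 10.7 at 32°C (median 0.802) and 3.48 to 25.9 at 38°C (median 11.4). The groups overlapped, as S070 replicate 1, whose profile was closest to P040, already had 10.7 CPM at 32°C.

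The glutathione S-transferases gst5 (GRMZM2G308687), gst31 (GRMZM2G475059) and gst2 (GRMZM2G132093) had late steps of 1.79, 1.39 and 0.91. gst5 had medians of 5.07, 2.48 and 16.6 CPM, gst31 of 2.42, 3.74 and 12.9, and gst2 of 3.52, 2.63 and 6.97. Their ranges overlapped between 32°C and 38°C, with up to 28.1 CPM of gst5 in a library at 32°C.

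Both cytochromes P450, GRMZM2G075244 (CYP709C14) and GRMZM2G075461, lie close to each other on one chromosome in the study's annotation. GRMZM2G075244 had 0.511 to 12.3 CPM at 38°C (median 2.72) and GRMZM2G075461 0.435 to 10.8 (median 2.20), with medians of at most 0.203 CPM at the lower heat levels. Both were highest in L023 (12.1 and 10.2 CPM) and correlated with r = 0.958 over the 16 libraries at 38°C. As related neighbours they may share reads, and their levels are uncertain as to which copy they stand for.

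Other genes had names linked to protection and defence. GRMZM2G075315, a Bowman-Birk inhibitor of trypsin-like proteases, had a late step of 1.94, with medians of 0.725, 0.704 and 3.61 CPM and up to 34.2 CPM at 38°C. dhn2 (GRMZM2G373522), a dehydrin, one of the hydrophilic proteins that gather in drying tissue, had medians of 1.46, 1.24 and 7.99 CPM and a late step of 1.73. It was higher at 38°C in 7 of 8 lines.

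Oxylipin genes were lox3 (GRMZM2G109130) and aos1 (GRMZM2G067225). lox3 had 0 to 2.78, 0 to 2.72 and 0.840 to 6.11 CPM at the 3 heat levels (medians 0.629, 0.479 and 4.45). aos1, allene oxide synthase, which opens the branch to jasmonate, had 0 to 2.98, 0 to 4.27 and 1.02 to 5.29 CPM (medians 0.526, 0.748 and 2.63). Maize LOX3 is known as a 9-lipoxygenase, whose products are not precursors of jasmonate.

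Of the redox genes, the alternative oxidase GRMZM2G125669, which passes mitochondrial electrons directly to oxygen, had medians of 0.298, 0.333 and 1.87 CPM. rbohD (GRMZM2G441541), an NADPH oxidase that makes superoxide at the cell membrane, had medians of 4.88, 4.24 and 7.79 CPM. Their late steps were 1.09 and 0.90, and in both the ranges at 32°C and 38°C overlapped.

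A further group had names from nitrogen and carbon metabolism. Glutamate dehydrogenase (GRMZM2G427097), which releases ammonium from glutamate, had 0.388 to 1.32 CPM at 25°C and 0.521 to 3.49 at 32°C (medians 0.817 and 0.914). At 38°C it had 51.7 and 24.5 CPM in S058, 23.1 and 5.72 in S070, and 0.520 to 3.53 in all other lines. Its median over the 16 libraries was 2.52 CPM, so the high values belonged to a pair of Dent lines.

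Asparagine synthetase (GRMZM2G078472), which stores nitrogen in asparagine, had medians of 0.440, 0.167 and 1.04 CPM. At 38°C it had 39.8 and 12.9 CPM in S058, 24.1 and 12.9 in S070 and 21.7 and 7.01 in L012, and at most 3.94 CPM in the other 5 lines. S058 was the highest line already at 32°C, with 7.68 and 3.06 CPM.

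icl1 (GRMZM2G056369), isocitrate lyase of the glyoxylate cycle, was at 0 in all 15 libraries at 32°C and in 11 of 16 at 25°C. At 38°C it had 14.7 and 14.0 CPM in S058 and 20.9 and 2.69 in S070, with at most 1.73 CPM in any other library. S058 replicate 2 had 12.8 CPM at 25°C, so its level was not tied to 38°C in that line, and no fold is given against the zeros at 32°C. Over the 16 libraries at 38°C, icl1 and glutamate dehydrogenase correlated with r = 0.940, with the highest values of both genes in S058 and S070.

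mas1 (GRMZM2G102183), malate synthase, the partner of icl1 in that cycle, had another pattern. It had 13.2 and 13.4 CPM in L043 at 25°C, against 2.99 and 7.11 at 38°C, and 11.9 and 3.92 CPM in S058 at 38°C. Its medians were 1.10, 0.392 and 3.46 CPM.

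**Figure D3:**
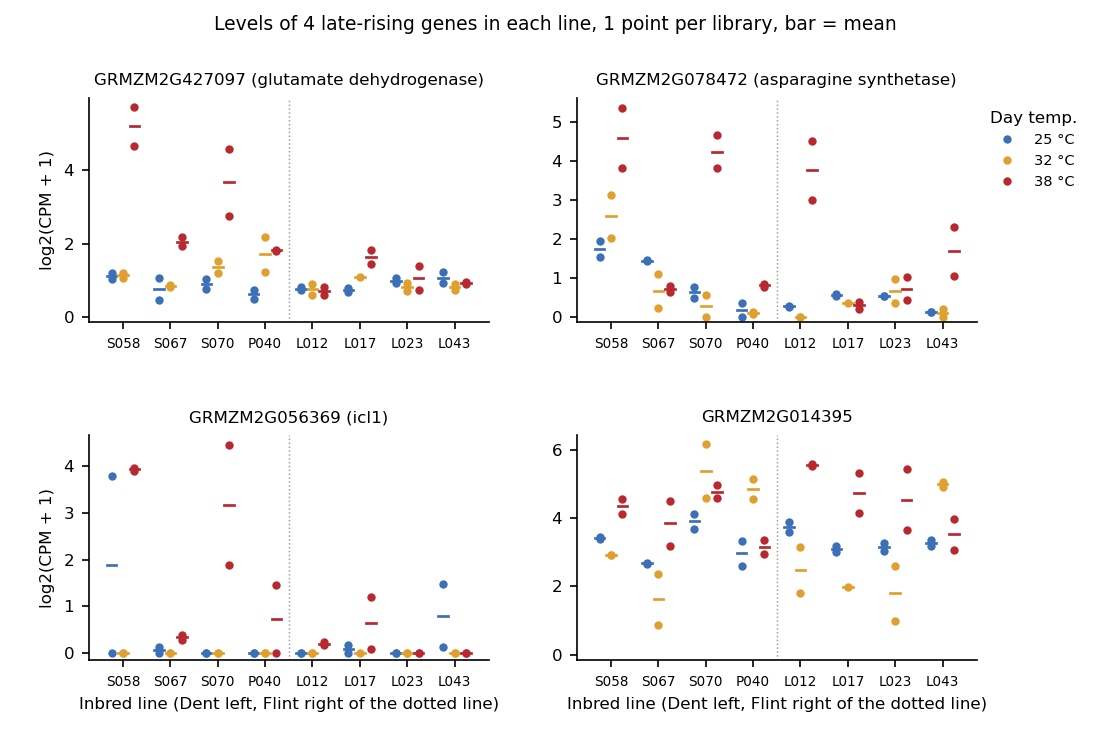
log2(CPM + 1) of glutamate dehydrogenase, asparagine synthetase, icl1 and GRMZM2G014395 (vertical axes) in the 8 lines, Dent left and Flint right, 1 point per library with the heat level in colour and means as bars. The red points of S058 and S070 stand high in the first 3 genes, and the mean of GRMZM2G014395 is lower at 38°C than at 32°C in S070, P040 and L043.

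Other metabolic genes are given by their medians at 25°C, 32°C and 38°C. gln2 (GRMZM2G024104), a glutamine synthetase, had medians of 0.928, 0.657 and 2.03 CPM, and the beta-glucosidase GRMZM2G031660 of 0.381, 0.408 and 1.90. AGA1 (GRMZM2G340656), an alkaline alpha-galactosidase that cuts raffinose-type sugars, had medians of 3.82, 3.94 and 13.4 CPM, but P040 replicate 2 at 32°C reached 124 CPM, above the highest of 57.5 at 38°C. crtRB1 (GRMZM2G152135), beta-carotene hydroxylase of xanthophyll synthesis, had medians of 1.85, 0.639 and 4.90 CPM.

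rca3 (GRMZM2G162282), named as a Rubisco activase, the chaperone that keeps the carbon-fixing enzyme active, was among the most abundant. It had 4.13 to 34.5 CPM at 25°C (median 17.7), 1.33 to 36.9 at 32°C (median 17.1) and 5.46 to 93.6 at 38°C (median 39.5). rca1, a second Rubisco activase gene and a leaf marker that is not late-rising, fell by 0.67 on the log2 scale between 32°C and 38°C (SE 0.189, adjusted p = 0.00536, edgeR quasi-likelihood test).

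Regulators were few and weakly to moderately expressed. The NAC transcription factor NAC49 (GRMZM2G347043), listed as SNAC1 after a stress factor of rice, had 5.41 to 13, 3.03 to 14.4 and 5.47 to 26.3 CPM (medians 7.44, 5.92 and 13.4). A second NAC gene, GRMZM2G336533, had medians of 0.308, 0.252 and 1.76 CPM. WRKY53 (GRMZM2G125653) had medians of 0.380, 0.408 and 1.37 CPM and bHLH116 (GRMZM2G042895) of 0.169, 0.167 and 1.07. The ranges at 32°C and 38°C overlapped in all 4.

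phyA2 (GRMZM2G181028), a phytochrome A photoreceptor of far-red light, had medians of 2.70, 3.36 and 8.26 CPM and was higher at 38°C in 8 of 8 lines. Both splicing factors of the serine/arginine-rich family, SCL25B (GRMZM5G867185) and srp30 (GRMZM2G331811), had late steps of 1.04 and 1.10. SCL25B had 0.704 to 3.44 CPM at 32°C and 3.78 to 6.28 at 38°C, without overlap, and srp30 had medians of 1.07, 0.788 and 2.86 CPM.

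Genes placed only by class were the RING-type ubiquitin ligase GRMZM2G315431, with medians of 0.290, 0.272 and 2.09 CPM, and the aspartate protease GRMZM2G053206, with 0.803, 0.392 and 2.36. The ABC transporter GRMZM2G145446 had medians of 0.328, 0.563 and 2.12 CPM. GRMZM2G062531, classed with steroid metabolism, had 3.16 to 32.1 CPM in the Dent libraries at 38°C and 0 to 1.14 in the Flint libraries, of which 6 were at 0. The pools did not overlap at 38°C, but with so many zeros the fitted Flint minus Dent difference had an SE too large to read, and it was not called.

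Of the 100 genes, 27 had a gene name in the RefSeq table and 44 a name or an entry in the study's gene table, while 56 had neither and are given by their identifier. Of the 9 genes above 20 CPM, 7 had no gene name, and gst5 and rca3 were the exceptions. The most abundant, GRMZM2G469277, had 166 ± 64.1 CPM (SD, n = 16) at 25°C, 198 ± 65.0 (n = 15) at 32°C and 372 ± 136 (n = 16) at 38°C, and 9 of 16 libraries at 38°C exceeded all others. GRMZM2G365374 had 20.2 ± 5.92, 20.03 ± 5.83 and 37.4 ± 7.58 CPM in the same groups.

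GRMZM2G181000, sixth in rank, had medians of 1.19, 0.363 and 7.84 CPM and lies in RefSeq gene order 1 gene away from phyA2. No other pair of the genes had so few as 2 genes between them in that order. GRMZM2G048129 had up to 156 CPM in P040 replicate 2 at 32°C against a median of 5.02, so that its highest library was not at 38°C.

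Lines differed in how far the set moved. The late step was above 0 in all 8 lines for 64 of the 100 genes, against 7.08% of all genes, in 7 lines for 27, in 6 lines for 8 and in 5 lines for GRMZM2G014395. By line, the number of genes with a higher level at 38°C was 100 in S058, 99 in S067, 96 in L017, 96 in L023, 95 in L012, 95 in L043, 90 in S070 and 83 in P040. The median late step was highest in L017 (1.56), followed by L023 (1.36), L012 (1.3), S058 (1.14), S067 (1.10), S070 (1.01), L043 (0.88) and P040 (0.73).

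Since these values had chosen the genes, the rule was repeated without the libraries of 1 line at a time, and the 100 genes it then gave were read in that line. Of these, 98 were higher at 38°C in S058, 97 in S067, 95 in L012, 93 in L023, 91 in L043 and 90 in L017, but 79 in S070 and 68 in P040. Over all genes the share higher at 38°C in a line was 48.7% to 55.0%. The median late step in the left-out line was 1.40 in L017 and 0.54 in P040, the extremes. S070 and P040 are the lines of the 4 libraries that stood apart at 25°C and 32°C. Chosen without replicate 1 and read in it, 100 of 100 genes were higher at 38°C, and 98 for replicate 2, where lines and chambers were the same. Over all genes the share was 55.8% in replicate 1 and 51.7% in replicate 2.

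The first step was also less flat within lines than in the mean. In 77 of 800 pairs of gene and line it exceeded 1 in size, 54 genes were within 1 in all lines and 5 genes exceeded it in at least 3. The median first step was -0.51 in L023, with 16 genes below -1, and 0.33 in S070, with 14 genes above 1. P040 had 12 genes above 1 and 5 below -1. S070 and P040 hold the libraries at 32°C that were closer to another line. None of these counts was taken over all genes, and the rule had limited only the mean over libraries, so they are a description.

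**Figure D4:**
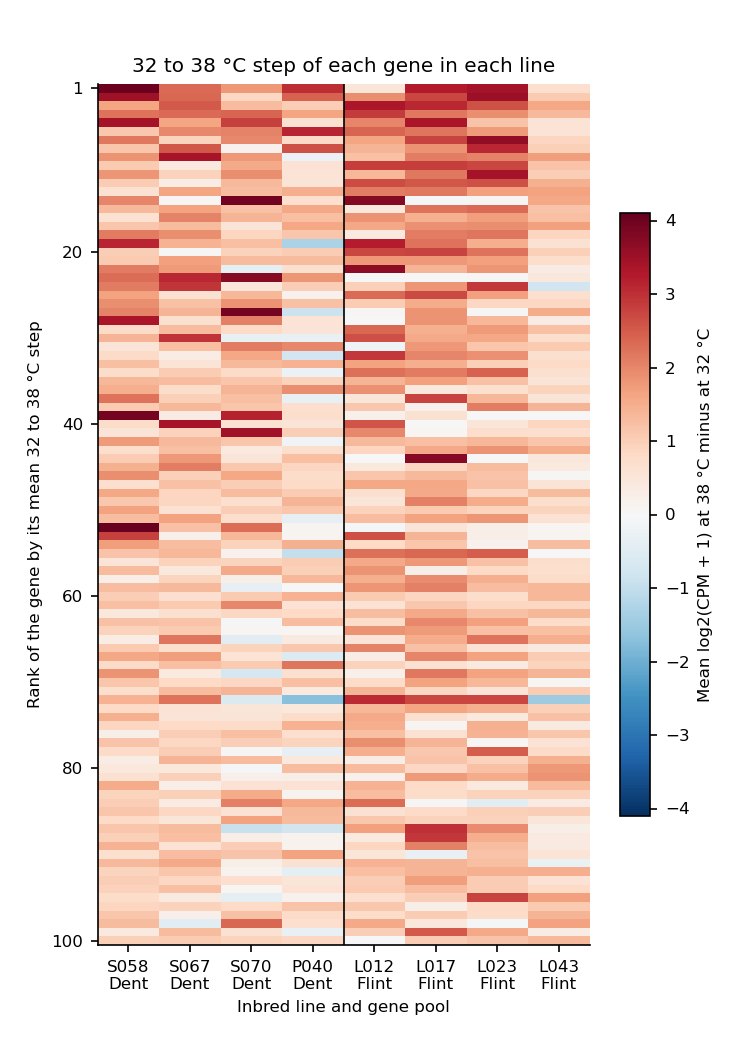
Late step of the 100 genes (rows, by rank of the mean late step) in the 8 lines (columns, Dent left and Flint right), as mean log2(CPM + 1) at 38°C minus that at 32°C, in colour from blue (below 0) to red (above 0). Red prevails in all columns, with the most pale or blue cells in P040, where 83 of 100 genes were higher at 38°C.

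Whether the late step of a gene differed between the 8 lines was tested by edgeR's quasi-likelihood F test over all 17905 genes. This difference was not used by the rule, although a mean can be carried by few lines. At a Benjamini-Hochberg adjusted p under 0.05, 15 of the 100 genes were called, against 1.68% of all genes. The p-values measure the spread between pooled libraries of a line, which were grown side by side in 1 chamber. Without the 4 libraries that stood apart, 11 genes were called. Without 1 library the count ran from 6 to 25. It was 6 and 7 without either library of P040 at 38°C, 9 without L012 at 32°C (replicate 2) and 25 without P040 at 32°C (replicate 1).

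Of the 15 genes, 5 passed under all 53 alternatives run. Glutamate dehydrogenase (GRMZM2G427097, adjusted p = 0.00256) had late steps from -0.04 in L012 to 4.06 in S058. GRMZM2G014395 had the widest spread over the lines (SD 2.0, adjusted p = 0.00256, edgeR). Its late step was 3.07 in L012, 2.74 in L017, 2.73 in L023, 2.22 in S067 and 1.43 in S058, but -0.59 in S070, -1.47 in L043 and -1.70 in P040. The same 3 lines had 22.7 to 70.8 CPM at 32°C, where no other line exceeded 7.98, so that it was not a steady gene in any of them.

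GRMZM2G046382 (adjusted p = 0.00351), GRMZM2G046679 (adjusted p = 0.00412) and AC208204.3_FG006 (adjusted p = 0.0055) were the others (edgeR quasi-likelihood test). The remaining 10 were called at adjusted p from 0.0173 to 0.0446. Asparagine synthetase (GRMZM2G078472, adjusted p = 0.0237) had late steps of 3.95 in S070 and 3.75 in L012, against -0.07 in L017. In2-1 (GRMZM2G042639, adjusted p = 0.0303) had 3.49 in L023 and 3.47 in S058, against 0.84 in S070, whose replicate 1 at 32°C was closest to P040. GRMZM2G162359 (adjusted p = 0.0173) had 3.22 in L012 and 3.11 in S058, against -1.28 in P040, and was not called without the 4 libraries (adjusted p = 0.109).

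The most even gene over the lines was GRMZM2G100344, with an SD of 0.26 over 8 late steps, followed by GRMZM5G803565 with 0.27. The median SD of the 100 genes was 0.64, against 0.32 over all genes. The rule had chosen large late steps, and whether other genes with steps as large spread less was not tested.

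Flint and Dent lines differed in the late step of 4 of the 100 genes (edgeR quasi-likelihood test, adjusted p under 0.05), against 0.145% of all genes. All 4 were larger in Flint, against 13 of the 26 genes called among all genes (0.0726% of all genes). GRMZM2G046382 had 4.51 to 18.4 CPM in Dent libraries at 32°C (median 11.1) and 1.10 to 4.37 in Flint (median 2.72), without overlap. At 38°C it had 6.21 to 40.7 CPM in Dent (median 24) and 4.50 to 47.3 in Flint (median 21.8), so the pools overlapped there and differed at 32°C. The step was larger in Flint by 1.90 on the log2 scale (SE 0.338, adjusted p = 0.00423).

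GRMZM2G046679 followed it closely, with a Flint minus Dent difference of 2.09 (SE 0.312, adjusted p = 0.000783, edgeR). Its medians in Dent and Flint were 7.97 and 1.6 CPM at 32°C and 16.3 and 15.7 CPM at 38°C. These genes correlated with r = 0.993 over the 16 libraries at 38°C, the highest of 4950 pairs of the 100 genes. AC208204.3_FG006, with r = 0.918 and 0.902 to them, had a difference of 1.87 (SE 0.369, adjusted p = 0.0134, edgeR). Its medians in Dent and Flint were 4.87 and 2.61 CPM at 25°C, 8.27 and 2.12 at 32°C, and 18.2 and 13.3 at 38°C. From 25°C to 32°C its Dent median thus rose and its Flint median fell. None of the 3 was matched in the tables used.

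GRMZM2G102711 was weaker, with medians of 1.14 and 0.126 CPM in Dent and Flint at 32°C and 2.61 and 2.08 at 38°C, and a difference of 2.80 (SE 0.537, adjusted p = 0.0126, edgeR). In all 4 genes the Flint median was below the Dent median at both heat levels, by a wider margin at 32°C.

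**Figure D5:**
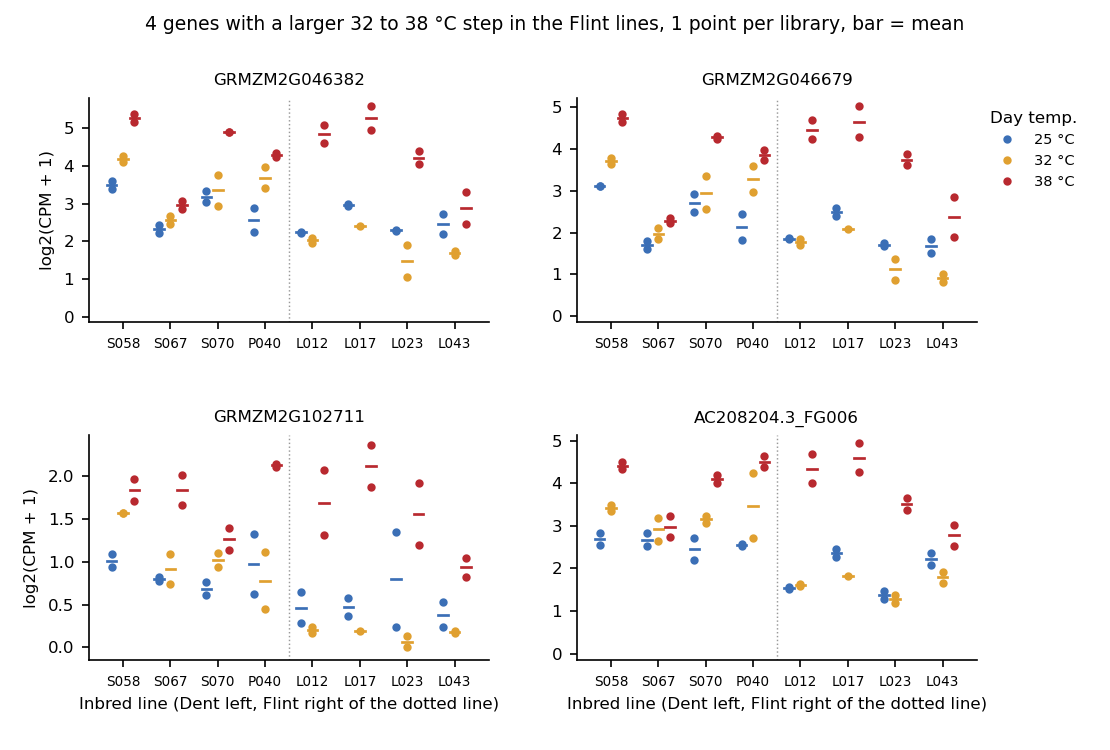
log2(CPM + 1) of the 4 genes with a larger late step in Flint lines (vertical axes) in the 8 lines, Dent left and Flint right of the dotted line, 1 point per library with the heat level in colour and means as bars. At 32°C the Flint points of GRMZM2G046382 (1.10 to 4.37 CPM) lie below all Dent points (4.51 to 18.4 CPM), whereas the pools overlap at 38°C.

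These calls treated libraries of a pool's lines as the spread. With the 8 lines as the unit, limma on the line steps called 0 of the 100 genes and 0 of all genes at an adjusted p under 0.05, and 22 of the 100 at an unadjusted p under 0.05, against 9.65% of all genes. By exact two-sided permutation of 4 against 4 lines, p was 0.0286 for GRMZM2G046679, the smallest this design allows, 0.0571 for GRMZM2G046382, 0.0857 for AC208204.3_FG006 and 0.143 for GRMZM2G102711. Using replicate 1 or replicate 2 alone, with 1 library per line and heat level, edgeR called 0 of the 100 genes. Single libraries moved the count from 4 up to 9 (without S067 at 38°C, replicate 1), 8 (without S067 at 32°C, replicate 2) and 7 (without L043 at 38°C, replicate 2).

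Across the whole set, the Flint minus Dent difference of the late step was above 0 in 78 of the 100 genes, and in 57.1% of all genes. The 4 libraries that stood apart are all of Dent lines, and this count was not repeated without them. Of the named genes, hsp22 had a difference of 2.90 (SE 0.688, adjusted p = 0.0519, edgeR), which missed the threshold. Without the 4 libraries that stood apart, 5 of the 100 genes were called between Flint and Dent.

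Between susceptible and tolerant lines, edgeR's quasi-likelihood test called 0 of the 100 genes and 0% of all genes at an adjusted p under 0.05, and the likelihood ratio tests of edgeR and DESeq2 called 0 of the 100 as well. At an unadjusted p under 0.05 there were 15 of the 100, against 6.84% of all genes (1224 genes). In 12 of the 15 the step was smaller in susceptible lines, against 830 of the 1224 genes (4.64% of all genes). The smallest adjusted p of the 100 was 0.585, for GRMZM2G067315 and GRMZM2G048129, with differences of -2.81 (SE 0.825) and -2.23 (SE 0.697). With the 8 lines as the unit, limma called 0 at an adjusted p and 4 at an unadjusted p under 0.05, against 2.96% of all genes. The difference of susceptible minus tolerant lines was below 0 in 65 of the 100 genes and in 55.3% of all genes. The susceptible group holds S070 and P040, whose 4 doubtful libraries lie at 25°C and 32°C, and 0 of the 100 genes were called without them.

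Other genes of the same pathways, gathered by their symbols alone, were read in the contrast of 38°C against 32°C by edgeR's quasi-likelihood test at an adjusted p under 0.05, where 16.8% of all genes were higher and 16.3% lower. The rule had fixed this call for the late-rising genes, so counts are given for the genes outside the set. Of 12 such genes named as heat shock proteins, 9 were higher and 0 lower. The largest changes were those of hsp82 (GRMZM5G833699, 4.0 ± 0.401 on the log2 scale, SE), hsp101 (GRMZM2G360681, 3.97 ± 0.392), hsp26 (GRMZM2G149647, 3.41 ± 0.425) and Hsp70 (GRMZM2G310431, 3.19 ± 0.329). The latter 3 were among the chaperone genes set aside by the rule. Of these, hsp26 and Hsp70 also exceeded the limit of 0.4 between 25°C and 32°C, with first steps of 0.512 and 0.773. hsp82 exceeded that limit too, as its level went from 0.26 to 0.97. All 3 chaperonin genes, of which a pair is also counted as heat shock proteins, were higher.

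Of 7 heat stress transcription factor genes, 1 was higher (Hsf05, GRMZM2G133023, 1.93 ± 0.357) and 3 were lower, and none was late-rising. Symbols of folding in the endoplasmic reticulum matched 16 genes, of which 5 were higher, with bip1 (GRMZM2G114793) at 0.93 ± 0.180, and 2 lower. Among the 16 were GRMZM2G157836 and GRMZM2G160842, matched as CNX5 but also named MOCS3, a protein of molybdenum cofactor synthesis, and neither was called. Of 18 glutathione S-transferases outside the set, 6 were higher and 1 lower, and GST25 (GRMZM2G161905) had the largest change, 2.36 ± 0.345. Of 10 antioxidant genes, 4 were higher and 0 lower, with cat2 (GRMZM2G090568), a catalase, at 1.02 ± 0.253.

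Symbols of lipoxygenases and of jasmonate synthesis matched 16 genes outside the set, of which 2 were higher and 4 lower, and opr6 (GRMZM2G068947) fell by 1.45 (SE 0.183). Not all lipoxygenases lead to jasmonate. The wound protein wip1 (GRMZM2G156632), a Bowman-Birk type inhibitor, was the 1 of 6 pathogenesis and wound genes that was higher, at 2.57 ± 0.545. Symbols of desiccation and abscisic acid matched 11 genes outside the set, of which 3 were higher and 1 lower. These include rab2 genes, which encode small GTPases, and genes named EMB for an embryo defect, among them EMB2219 (GRMZM2G426154), 1 of the 3 higher, so the count does not describe desiccation genes alone. rab17 (GRMZM2G079440), a dehydrin, was higher by 0.40 ± 0.141. The galactinol synthase GRMZM5G872256 was higher by 1.28 ± 0.206.

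Among transcription factor families outside the set, NAC genes had 4 higher and 0 lower of 11, WRKY 3 and 3 of 13, bZIP 4 and 3 of 18, AP2/EREBP 4 and 1 of 13 and MYB 4 and 6 of 25. One of the 4 NAC genes, GRMZM2G018553, had nearly the counts of the late-rising GRMZM2G336533 and is no separate observation. bZIP61 (GRMZM2G137046) was higher by 1.72 ± 0.238 and bZIP111 (GRMZM2G073427) fell by 2.60 (SE 0.308). Symbols of aquaporins, the water channels, had 10 higher and 3 lower of 21. Autophagy genes had 1 higher and 4 lower of 12, proteases of senescence 0 and 4 of 6, and genes of sugar use and cell wall 1 and 7 of 17. Of those 7, GRMZM2G037413 and GRMZM2G055795, both named cesa11, had identical values and stand for 1 set of reads. The 1 ubiquitin and proteasome gene found was lower. Symbols cover few of the genes of each family and can match unrelated genes, so these counts describe the matched genes only.

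Over the 16 libraries at 38°C, the 100 genes did not move as 1 block. The median correlation of log2(CPM + 1) over 4950 pairs was 0.14 and 8 pairs exceeded 0.9. Beside the pairs above, GRMZM2G404769 and GRMZM2G351232 (r = 0.970), GRMZM2G125034 and GRMZM2G131055 (r = 0.936) and GRMZM2G078465 and GRMZM2G053206 (r = 0.902) were the most alike. Libraries of a line are not independent, and depth is shared by all genes of a library, so these values are a description.

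Some identifiers held nearly the same counts. GRMZM2G044281 differed from GRMZM2G345330 by 2.67% of their counts, and the latter had just missed the limit with a first step of -0.402. GRMZM2G336533 differed from GRMZM2G018553, listed under the same name NAC1, by 8.25%. Reads of such copies cannot be told apart here. Among all genes, 90 had counts identical to those of another gene in every library. GRMZM2G059799 and GRMZM2G088064 each match a pair of neighbouring RefSeq genes, so their counts may join more than 1 gene.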

How the data were processed

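RNA of pooled leaf pieces from 8 maize lines at 3 heat levels was sequenced in 47 libraries. After ribosomal RNA depletion, the authors aligned single-end reads to B73 RefGen_v3 with TopHat2 2.0.3 (tool version per the submitters' processing notes), counted reads of nuclear protein-coding genes with easyRNASeq, left out genes without a low minimum of CPM in at least 2 libraries, and deposited raw counts for 17905 genes. How strand was treated is not given in the sources used here, so overlapping and antisense genes cannot be told apart. All columns matched a label (0 unmatched).

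Counts were scaled by TMM and fitted with edgeR 4.0.16 (quasi-likelihood F test, prior count 0.125), with limma 3.58.1 and DESeq2 1.42.0 as alternatives, in R 4.3.3. Tables and plots were made with Python 3.11.15, pandas 2.3.3 and matplotlib 3.10.9. A call needs a Benjamini-Hochberg adjusted p under 0.05 over all 17905 genes. The 2 steps were fitted with line and heat level, the line test with 24 means, and the pool and tolerance tests with line, heat level and the pool or class by heat level. Levels used a pseudocount of 1, which understates changes of low genes. Totals of 3687700 to 20642205 counts set the precision: at 38°C 39 of the 100 genes had under 5 CPM. Scripts were tested on simulated data.

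The genes, lists, tests and the rule for named genes were chosen with earlier results of these data known. Named are the 12 largest late steps, the 5 most abundant, genes at the limits, those with a name or description, the 5 smallest adjusted p of each line test, the extremes of spread, neighbours and up to 4 genes per list. The lists came from symbols in the RefSeq table (assembly Zm-B73-REFERENCE-NAM-5.0), which matched 12358 of 17905 identifiers and 77 of the 100. Its build differs from that of the counts, so no coordinates are given. Classes and descriptions of 25 of the 100 come from the study's gene table, whose genes were selected on these libraries. Sequences were not used here. Alternatives were other scalings, pseudocounts, limits, filters, tools, covariates and left-out libraries, replicates or lines. Fits without 1 library kept the dispersion trend of all libraries.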

Additional observations from a re-analysis of the deposited data

Results flagged for a closer look

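The late step, the difference between 38°C and 32°C, was compared between lines in joint edgeR quasi-likelihood tests over all genes, and results where the lines differed are listed here with no cause tested. Between the 8 lines, 15 of the 100 genes differed. The adjusted p was 0.00256 for GRMZM2G014395 and GRMZM2G427097, 0.00351 for GRMZM2G046382, 0.00412 for GRMZM2G046679 and 0.0055 for AC208204.3_FG006. It was 0.0173 for GRMZM2G162359, 0.0237 for GRMZM2G078472, 0.0241 for GRMZM2G181236, 0.0264 for GRMZM2G131055, 0.0295 for GRMZM2G444801 and 0.0303 for GRMZM2G042639. For GRMZM2G102711 and GRMZM2G132875 it was 0.0434, for GRMZM2G169329 0.0443 and for GRMZM2G048129 0.0446.

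Between Flint and Dent lines, 4 genes differed. The Flint minus Dent difference on the log2 scale was 2.09 for GRMZM2G046679, 1.90 for GRMZM2G046382, 2.80 for GRMZM2G102711 and 1.87 for AC208204.3_FG006. No group of line and heat level had enough libraries for a test of single outlying libraries.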

How the results depend on the processing

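For the genes called between Flint and Dent, the Flint minus Dent difference reversed in no alternative that gave it. Other results were compared as counts, shares or adjusted p, so a reversal of their direction was not tested. Of the 100 genes, 98 were also taken with DESeq2 size factors, but 59 with library totals free of genes above 1% of counts, where the median late step of all genes was 0.41 in place of 0.03. With TMM as the base, 65 were also taken at a pseudocount of 0.25, 33 at a minimum mean of 5 CPM and 47 at a limit of 0.2. Without 1 replicate number or library, 62 to 98 were also taken, 62 being without replicate 1. Over all genes, calls at 38°C against 32°C went from 5936 to 2116 to 3626 with 1 replicate number, and at 32°C against 25°C from 6905 to 3505 to 3874.

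The count of genes whose step differed between lines went from 15 to 33 (2036 of all genes in place of 300) with edgeR's likelihood ratio test and gene-wise dispersions, to 23 with DESeq2's likelihood ratio test, to 29 without the 3 libraries first seen closer to another line and to 11 without all 4, an alternative chosen after seeing the data. Without 1 library it was 6 to 25. Between Flint and Dent it went from 4 to 11, 7 (DESeq2), 7 (24 means) and 0 (limma, 8 lines), and to 0 to 9 without a library or replicate number. Between susceptible and tolerant lines it was 0 in all 58 alternatives. The causes were not tested. GRMZM2G048129 was called in 16 of 53 alternatives, GRMZM2G169329 in 21, GRMZM2G102711 in 29 and GRMZM2G132875 in 30 of the line test.

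Libraries with the same replicate number deviated together in part, and the main tests had no replicate term. The r of the replicate differences between groups had a median of 0.19 (-0.25 to 0.51), and 0.25 within a heat level. Of 253 pairs, 169 exceeded 0.1. With the replicate block, 6246 genes were called at 38°C against 32°C, 7092 at 32°C against 25°C, 20 of the 100 genes between lines (788 of all genes), 6 between Flint and Dent (111 in place of 26) and 0 between tolerance classes. The share read as higher in left-out lines was 88.9%, and 87.6% to 91.6% in its alternatives.

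Levels under 1 CPM rest on few counts, mostly at 25°C and 32°C, and so do the log2 differences given for hsp26, wip1, GST25, Hsf05 and GRMZM2G102711. L017 had 1 library at 32°C, so its leave-out was not run in the line test.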
